A study of Mus musculus with 3 samples.

Results

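The Frizzled genes Fzd1 to Fzd10 encode the membrane-spanning receptors that bind Wnt proteins. All 10 were measured by 16 probes among the 41174 probes, bearing 27745 gene names, of a whole-genome mouse expression array. Members were taken by gene symbol, as every probe whose gene name on the array was that of a Frizzled receptor. Fzd2, Fzd3, Fzd5, Fzd7, Fzd8 and Fzd10 were each represented by a pair of probes and the remaining 4 genes by a single probe. For a gene with a pair, the probe with the higher mean signal is called the brighter probe and the other one the dimmer probe.

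Kidney rudiments were taken at the embryonic stage E12.5 from Fgfrl1-/- mice and from their wildtype littermates, both on the C57BL/6 strain. Fgfrl1 is a receptor of the fibroblast growth factor receptor family that lacks the kinase domain, and Fgfrl1-/- embryos carry no intact copy of its gene. The comparison asked which transcripts depend on Fgfrl1 when nephrons begin to form. Each of the 3 arrays compared 1 Fgfrl1-/- RNA preparation with 1 wildtype preparation, each from 6 to 9 pooled rudiments. Pooling hides the spread between single embryos, and n in the following text is the number of arrays. The Fgfrl1-/- RNA always carried the green dye Cy3 and the wildtype RNA the red dye Cy5, with 0 dye swaps, so that an effect of the dye on a probe and an effect of the genotype cannot be told apart.

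A Frizzled receptor binds a Wnt ligand through an extracellular cysteine-rich domain. Together with the co-receptors Lrp5 and Lrp6 it recruits Dishevelled proteins and stabilizes β-catenin, and in other settings it acts with planar cell polarity proteins to orient cells within a tissue. In the embryonic kidney, Wnt9b from the ureteric bud and Wnt4 from the induced mesenchyme are the ligands known to drive the conversion of mesenchyme into renal vesicles, the first epithelial structures of the nephron.

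The sequences of the array oligonucleotides show what each value rests on. Each oligo was 60 bases long, and its position is that given by the array design for mouse build mm8. The pair for Fzd10 is shown because the family's largest differences were read with it. These probes lay 943 bases apart on the + strand of chromosome 5 and did not overlap. Only the first 30 bases of each are printed, and whether they lie in the coding or the untranslated part of the transcript was not determined here.
Fzd10 brighter probe, chr5:128918631-128918690: ttgactctctgaattgttaaacaaatgatt
Fzd10 dimmer probe, chr5:128917688-128917747: tgcaagaacaggacattcggagcccaaatg
Aligned without gaps to the oligos of the other family members, the Fzd10 oligos matched at most 26 bases (brighter probe) and 25 bases (dimmer probe). The closest pair of oligos from different members belonged to Fzd2 and Fzd7, on the + strands of chromosomes 11 and 1. Capitals mark the 42 of 50 overlapping bases (84.0%) that were the same in both.
Fzd2 brighter probe, chr11:102422389-102422448: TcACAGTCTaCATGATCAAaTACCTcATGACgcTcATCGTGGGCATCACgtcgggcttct
Fzd7 dimmer probe, chr1:59429069-59429128: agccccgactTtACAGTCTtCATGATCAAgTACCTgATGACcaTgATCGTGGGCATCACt
The longest unbroken shared run between them was 14 bases. Transcripts of one gene could thus contribute to the signal of the other, and this share was not tested.

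Over the whole array, 164 probes were lower in the Fgfrl1-/- rudiments and 119 were higher at an adjusted p-value below 0.05 (limma, adjusted over all 41174 probes). The deleted gene itself was measured by 1 probe, and its log2 ratios on arrays 1, 2 and 3 were -1.21, -1.51 and -1.83. They averaged -1.52 ± 0.31 (SD, n = 3, adjusted p = 0.0332). Whether this probe lies within the deleted segment is not given in the sources used here. Of the marker genes examined for the tissue, 9 of 10 for the cap mesenchyme, 9 of 10 for the renal vesicle and 7 of 8 for the ureteric tip were well above background in both channels of every array. Arrays 2 and 3 shared a slide, which array 1 did not. Array 1 was also read with another version of the extraction software. Slide, software version and RNA preparation therefore cannot be told apart as sources of its differences. Across all probes, r between the log2 ratios was 0.713 for arrays 2 and 3, but 0.106 and 0.222 for array 1 against each of them.

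Fzd10, which the authors had already listed as lowered on these arrays, was the Frizzled gene with the lowest relative level in the Fgfrl1-/- kidneys. Its mRNA was 2.74-fold lower on the brighter and 2.16-fold lower on the dimmer probe, and the latter passed the test. The other 9 genes had mean log2 ratios between -0.32 and 0.28, and none of their 14 probes passed. Thus 1 of 16 Frizzled probes was lower, against 0.398% of all probes on the array, and 0 were higher, against 0.289% of all probes. At an unadjusted p below 0.05 there were 4 lower and 1 higher Frizzled probes, against 8.20% and 7.69% of all probes. The scanner software marked all 16 probes as well above background for both genotypes on every array, so that each value rests on 6 measured signals. The number of arrays sets the limit of precision, and the p-values describe the spread between these pools only.

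**Figure D1:**
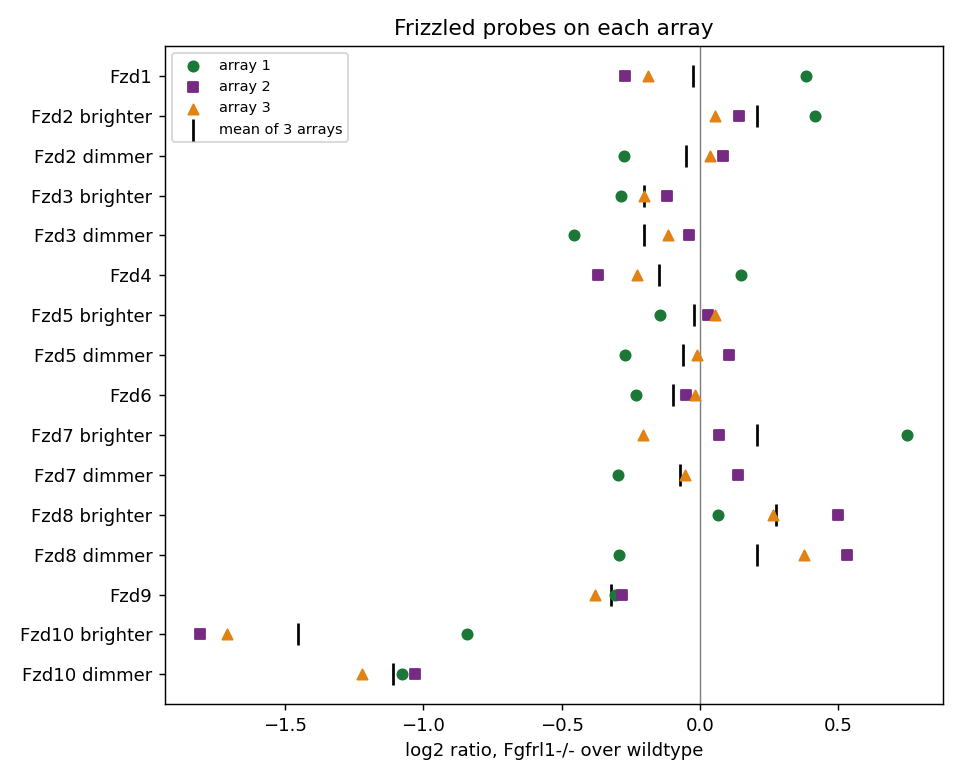
Log2 ratio of Fgfrl1-/- over wildtype (x axis) for each of the 16 Frizzled probes (rows) on array 1 (circles), array 2 (squares) and array 3 (triangles), with the mean as a vertical bar. Both Fzd10 probes lie far to the left of 0 on every array, while the means of the other 14 probes lie between -0.32 and 0.28.

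On 3 of 3 arrays, 6 Frizzled probes were below 0, namely both for Fzd10, both for Fzd3 and those for Fzd6 and Fzd9. This is to be read against the 19.2% of all probes that were. The brighter probes of Fzd2 and Fzd8 were above 0 on all arrays, as were 19.0% of all probes. The other 8 probes had mixed signs. In 5 of these 8, arrays 2 and 3 had one sign and array 1 the other, a split found in 50.3% of the probes with mixed signs on the whole array.

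Fzd10 belongs to a branch of the family with Fzd9 and, more distantly, Fzd4. It is among the less studied Frizzled receptors. For its brighter probe, the Fgfrl1-/- readings before background correction were 294, 133 and 188 intensity units (arrays 1 to 3), against wildtype readings of 481.5, 1067.5 and 952 units. For the dimmer probe it read 93, 69 and 84 units in the Fgfrl1-/- channel and 212, 349 and 345 units in the wildtype channel. The local backgrounds were 15.5 to 34 units (Fgfrl1-/-) and 45.5 to 59 units (wildtype). These readings come from different dyes, and the median probe was also brighter in the wildtype channel, with 99.5, 113 and 107.5 units against 97, 60 and 68 units, so that the genotypes are compared after normalization only.

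After normalization, the brighter Fzd10 probe had log2 levels of 8.34, 7.82 and 7.84 in Fgfrl1-/- and of 9.18, 9.62 and 9.55 in wildtype. Its log2 ratios were -0.84, -1.80 and -1.71, so that array 1 showed the weakest difference. The mean was -1.45 ± 0.53 (SD, n = 3), or 2.74-fold lower, with a 95% confidence interval of -1.94 to -0.96. With an adjusted p of 0.0552 (limma) this probe narrowly missed the threshold.

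The dimmer Fzd10 probe had log2 levels of 6.81, 7.16 and 7.04 in Fgfrl1-/- and of 7.89, 8.19 and 8.26 in wildtype. Its log2 ratios of -1.08, -1.03 and -1.22 differed little between arrays. The mean was -1.11 ± 0.099 (SD, n = 3), or 2.16-fold lower, with a 95% confidence interval of -1.30 to -0.92 and an adjusted p of 0.0263 (limma). Among all 41174 probes the brighter and the dimmer probe were the 16th and the 33rd lowest by mean log2 ratio. Ordered by p-value they ranked 351 and 20, so that the probe with the larger difference had the weaker test.

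The call depended on the set of probes tested and on single arrays. With only the brightest probe kept for each of the 27745 gene names, Fzd10 reached an adjusted p of 0.0527 (limma) and 0.530% of genes were called lower. With 1 probe for each of 19678 gene names that were a RefSeq symbol or synonym, a choice made after seeing the data, the adjusted p was 0.0241. With the mean of both probes it was 0.0337. The dimmer probe lost its call without array 2 (mean -1.15, adjusted p = 0.225) or without array 3 (mean -1.05, adjusted p = 0.450). In these fits 0 probes on the whole array were called. The brighter probe gained a call without array 1 (adjusted p = 3.50e-08). In the fit without array 1, however, 10.1% of all probes were called lower and 8.49% higher. Over 17 alternative settings the brighter probe ranged from -1.76 to -1.28 and passed in 6. This count includes the mean of both probes given above, which took the place of the brighter probe in that setting. The dimmer probe, which could be tested in 14 of the settings, ranged from -1.71 to -1.05 and passed in 9. The log2 ratio was thus negative throughout.

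**Figure D2:**
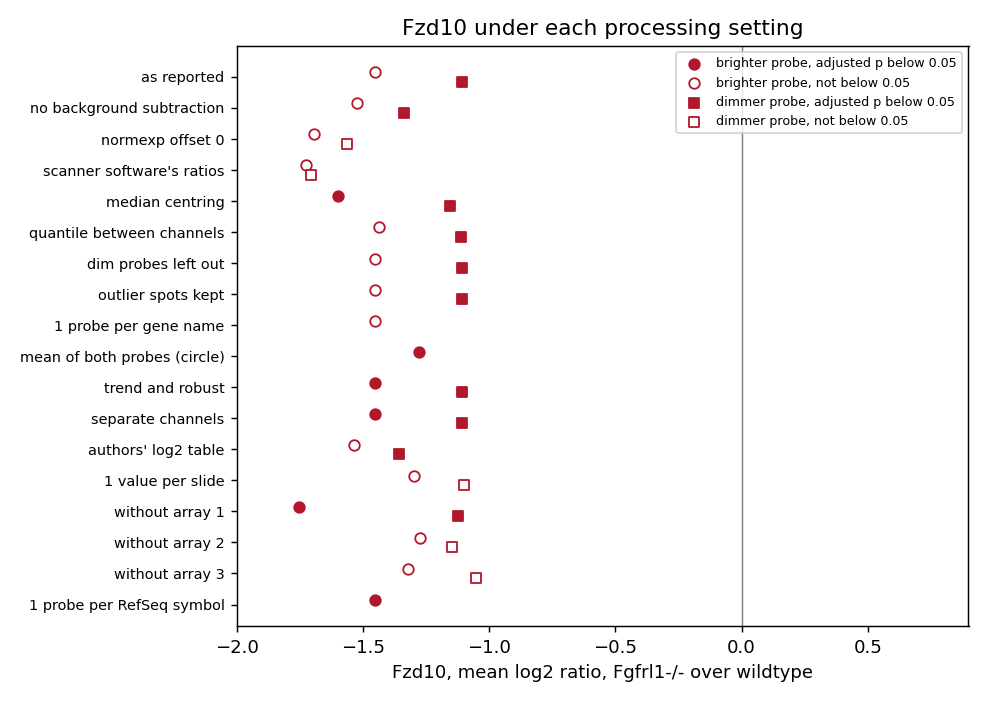
Mean log2 ratio of Fgfrl1-/- over wildtype (x axis) for the brighter (circles) and dimmer (squares) Fzd10 probe as reported and under 17 alternative settings (rows). In the row for the mean of both probes, the circle is that mean and not the brighter probe. Filled symbols mark an adjusted p below 0.05, open symbols one that was not. All values lie between -1.76 and -1.05, whereas the fill changes from row to row.

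Fzd9, the closest relative of Fzd10 among the members, had a single probe on the - strand of chromosome 5 (chr5:135533572-135533631). Its log2 levels were 6.86, 7.21 and 7.12 in Fgfrl1-/- and 7.17, 7.49 and 7.50 in wildtype. The log2 ratios of -0.31, -0.28 and -0.38 were the most uniform of the family. Their mean was -0.32 ± 0.050 (SD, n = 3), or 1.25-fold lower, with a 95% confidence interval of -0.50 to -0.15. The adjusted p was 0.109 (limma) and the gene was not called. Without array 1, where 10.1% of all probes were lower, the adjusted p was 0.00798. Without array 2 or array 3, where 0 probes on the whole array were called, it was 0.481 or 0.661. Fzd10 (brighter probe) minus Fzd9 was -0.54, -1.52 and -1.33 on the 3 arrays, with a mean of -1.13 ± 0.52 (SD). A two-sided exact sign permutation test over 3 arrays cannot give less than 0.25, which is the p found for this difference.

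Fzd4 is the receptor for Norrin as well as for Wnt proteins and is required for the growth of retinal vessels. Its level differed more between array 1 and the other arrays than between genotypes. The log2 levels were 11.00, 9.76 and 9.60 in Fgfrl1-/- and 10.86, 10.13 and 9.83 in wildtype, so that both channels of array 1 were above every channel of the other arrays. The log2 ratios were 0.15, -0.37 and -0.23, with a mean of -0.15 ± 0.27 (SD, n = 3, adjusted p = 0.618, 95% confidence interval -0.44 to 0.14). Without array 1 the mean was -0.30 and the adjusted p was 0.0155, in a fit that called 10.1% of all probes lower. Without array 2 the mean was -0.04 (adjusted p = 0.968) and without array 3 it was -0.11 (adjusted p = 0.945). Both of these fits called 0 probes on the whole array. Of 10 endothelial marker genes, 0 passed the test and their median log2 ratio was -0.03. Over all gene names only 0.483% were lower and 0.342% higher, so that a count of 0 among 10 genes says little about the endothelium.

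**Figure D3:**
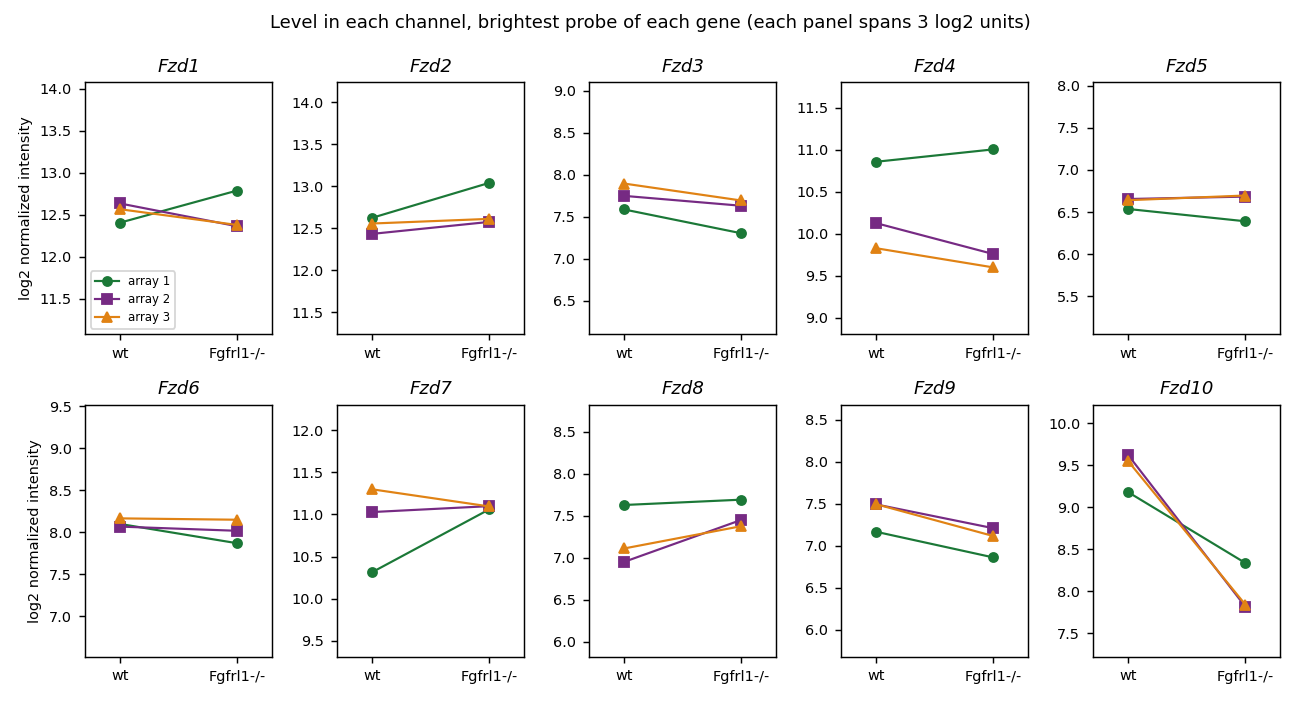
Log2 normalized intensity (y axis, each panel spanning 3 units) in the wildtype (wt) and Fgfrl1-/- channels for the brighter or only probe of each Frizzled gene. Lines join the channels of array 1 (circles), array 2 (squares) and array 3 (triangles). All 3 lines fall steeply for Fzd10, from 9.18 to 9.62 in wildtype to 7.82 to 8.34 in Fgfrl1-/-, while for Fzd4 the arrays differ more in height than in slope.

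Fzd1, Fzd2 and Fzd7 form another branch and are receptors of canonical Wnt signaling with overlapping roles in the embryo. None of their 5 probes passed the test. The Fzd1 probe had log2 ratios of 0.38, -0.27 and -0.19, averaging -0.03 ± 0.36 (SD, n = 3, 95% confidence interval -0.38 to 0.33). Its sign on array 1 thus differed from that on arrays 2 and 3. The probe passed the test without array 1 (mean -0.23, adjusted p = 0.0471), as did 10.1% of all probes in this direction. Without array 2 or array 3 its mean was 0.10 or 0.06.

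The brighter Fzd2 probe had log2 ratios of 0.42, 0.14 and 0.06 with a mean of 0.20 ± 0.19 (SD, n = 3, adjusted p = 0.381). The dimmer Fzd2 probe had values of -0.28, 0.08 and 0.04 with a mean of -0.05 ± 0.19 (SD, n = 3). The 95% confidence interval reached from -0.03 to 0.44 for the brighter and from -0.29 to 0.19 for the dimmer probe.

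For Fzd7, the brighter probe gave 0.75, 0.07 and -0.20 with a mean of 0.20 ± 0.49 (SD, n = 3, adjusted p = 0.681, 95% confidence interval -0.25 to 0.66). Its value on array 1 was the highest of any Frizzled probe on any array. There the wildtype level was 10.31, as against 11.03 and 11.30 on arrays 2 and 3, while the Fgfrl1-/- level of 11.06 was close to the 11.10 and 11.10 of the other arrays. The dimmer Fzd7 probe, whose oligo resembles that of Fzd2, gave -0.30, 0.14 and -0.05 with a mean of -0.07 ± 0.22 (SD, n = 3).

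Fzd5 and Fzd8 make up the next branch. Fzd5 is required for vessels of the yolk sac, and Fzd8 acts with Fzd4 in the growth of the ureteric tree. The mean of the brighter Fzd8 probe was the highest in the family over 3 arrays, but the brighter Fzd7 probe exceeded it without array 2 (0.27 against 0.16) and without array 3 (0.41 against 0.28). Its brighter probe had log2 levels of 7.69, 7.45 and 7.38 in Fgfrl1-/- and of 7.63, 6.95 and 7.11 in wildtype. The log2 ratios were 0.06, 0.50 and 0.27 with a mean of 0.28 ± 0.22 (SD, n = 3), or 1.21-fold higher, with a 95% confidence interval of 0.02 to 0.53 and an adjusted p of 0.276 (limma).

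The dimmer Fzd8 probe had log2 ratios of -0.29, 0.53 and 0.38 with a mean of 0.20 ± 0.44 (SD, n = 3, adjusted p = 0.645). Both Fzd8 probes were called higher when array 1 was left out, with means of 0.38 and 0.45 and adjusted p-values of 0.00545 and 0.00143, in a fit that called 8.49% of all probes higher. Without array 2 their means were 0.16 and 0.04, and without array 3 they were 0.28 and 0.12, with adjusted p-values from 0.767 to 0.976. The fits without array 2 or array 3 called 0 probes on the whole array. Fzd5 stayed near 0 on both probes. Its brighter probe gave -0.15, 0.03 and 0.06 and its dimmer probe -0.27, 0.10 and -0.01, and the intervals of the means were -0.21 to 0.17 and -0.30 to 0.18.

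Fzd3 and Fzd6 are the members known for planar cell polarity, in axon tracts and in the orientation of hair follicles. Their 3 probes were below 0 on every array by small amounts. The brighter Fzd3 probe had log2 ratios of -0.28, -0.12 and -0.20, averaging -0.20 ± 0.083 (SD, n = 3, adjusted p = 0.271, 95% confidence interval -0.38 to -0.02). The dimmer Fzd3 probe had values of -0.46, -0.04 and -0.11, averaging -0.20 ± 0.22 (SD, n = 3, adjusted p = 0.425). The means of the pair thus differed by only 0.0025 although the single arrays differed more. The ends of the dimmer probe's oligo lay 22750 bases apart on the genome, so that it spans an intron.

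Fzd6 gave -0.23, -0.05 and -0.02, with a mean of -0.10 ± 0.11 (SD, n = 3, adjusted p = 0.632, 95% confidence interval -0.29 to 0.10). Arrays 2 and 3 were thus close to 0, and array 1 was the lowest of the 3.

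The distance of Fzd10 from its relatives was examined on each array with the brighter or only probe of each gene. The median of the other 9 genes was 0.06, -0.05 and -0.19 on arrays 1, 2 and 3. Fzd10 lay below it by -0.91, -1.76 and -1.52, with a mean difference of -1.39 ± 0.44 (SD, n = 3). It was also below the lowest other member on each array, which stood at -0.31, -0.37 and -0.38. The two-sided exact sign permutation test gave p = 0.25, the smallest value possible with 3 arrays, so that this design cannot reach 0.05.

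The pairs of probes other than that of Fzd10 differed most on array 1. There the brighter probe of Fzd7 exceeded the dimmer one by 1.04 log2 units, and that of Fzd2 by 0.69. On arrays 2 and 3 the differences for these genes were between -0.15 and 0.06. Over the 8915 gene names with more than 1 probe, the median absolute difference was 0.223, 0.164 and 0.147 on arrays 1 to 3, and the 90th percentile was 0.624, 0.440 and 0.396. For Fzd10 the brighter probe was 0.23 above the dimmer one on array 1, and 0.77 and 0.49 below it on arrays 2 and 3. The probes of Fzd2 and Fzd7 on array 1 and of Fzd10 on arrays 2 and 3 therefore differed by more than 90% of such genes.

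**Figure D4:**
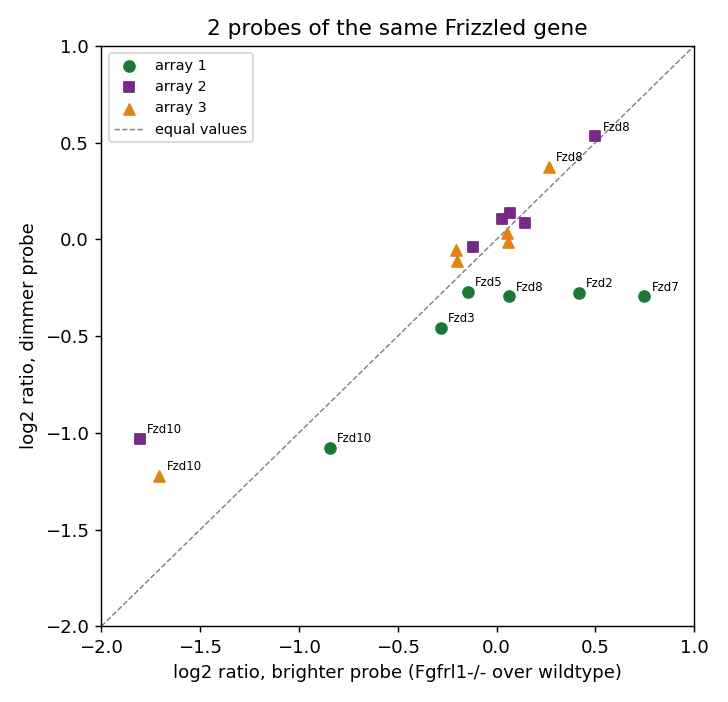
Log2 ratio of the brighter probe (x axis) against that of the dimmer probe (y axis) for the 6 Frizzled genes with a pair, on array 1 (circles), array 2 (squares) and array 3 (triangles), with the line of equal values dashed. Points of array 1, Fzd8 and Fzd10 are labelled. Fzd2 and Fzd7 on array 1 lie far to the right of the line, and Fzd10 is low on both axes.

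The 3 named genes past the test that were closest to the brighter Fzd10 probe over the arrays were Sp5 (Euclidean distance 0.375 log2 units), 1500016L03Rik (0.443) and Fgfrl1 (0.489), among 214 candidates. Sp5, a transcription factor induced by canonical Wnt signaling, had log2 ratios of -1.01, -2.01 and -1.98 and showed the same weaker difference on array 1. The dimmer Fzd10 probe was closest to 5430433G21Rik (0.111), Uncx4.1 (0.152) and 9430073N08Rik (0.192). Likeness over 3 arrays is a description of these values only.

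The other genes through which Frizzled receptors act were compared in 7 lists with 79 measured genes, each by its brightest probe. Of these, 9 were lower and 0 were higher, and the median log2 ratio was 0.02. Over all gene names, 0.483% were lower and 0.342% higher, with a median of 0.01. The 10 Frizzled genes had a median of -0.06, with 0 called by this probe. The list counts depended on the arrays. Without array 1 they rose to 20 lower and 11 higher genes, where 10.1% and 8.97% of all gene names were called. Without array 2 or array 3 there were 0, as on the whole array.

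None of the 10 co-receptors and other Wnt receptors passed the test. The co-receptor Lrp5 had log2 ratios of 0.25, -0.19 and -0.60, and Lrp6 had -0.11, 0.13 and 0.02, so that neither kept its sign over the arrays. The means of the list lay between -0.23 and 0.27. The 8 adaptors, which include the Dishevelled genes, also gave 0 calls, with means between -0.08 and 0.27. Over all gene names only 0.483% were lower and 0.342% higher, so that counts of 0 in lists this short say little.

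Of the 10 genes for Frizzled turnover, 0 passed, against 0.483% lower and 0.342% higher among all gene names. The ubiquitin ligases Znrf3 and Rnf43, which remove Frizzled receptors from the cell surface, had opposite signs. Znrf3 gave -0.30, -0.46 and -0.54 (mean -0.43 ± 0.12, SD, n = 3, adjusted p = 0.0881), and Rnf43 gave 0.38, 0.31 and 0.31 (mean 0.33 ± 0.040, SD, n = 3, adjusted p = 0.104). The R-spondin genes Rspo1 and Rspo3, whose products protect Frizzled from these ligases, had means of 0.53 and 0.42 (limma, adjusted p = 0.0978 for both). Both were above 0 on all arrays, as were 19.0% of all probes. The other R-spondin genes, Rspo2 and Rspo4, had means of -0.14 and 0.0020.

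Among 13 planar cell polarity partners, the cadherin Celsr1 was the only one that passed, with a mean of -0.53 ± 0.017 (SD, n = 3, adjusted p = 0.04999, limma). Vangl1 and Vangl2, the core partners of Fzd3 and Fzd6, had means of 0.20 and 0.17, and both were highest on array 1. Vangl1 had log2 ratios of 0.46, -0.06 and 0.20, and Vangl2 had 0.43, 0.01 and 0.05. Their means over arrays 2 and 3 were 0.07 and 0.03. Of 9 other proteins with a Frizzled-type cysteine-rich domain, 1 was lower. For this list and the polarity partners, the share over all gene names was 0.483% lower and 0.342% higher. The gene called in this list was Frzb, a secreted Wnt antagonist, with log2 ratios of -0.96, -0.92 and -0.95 (limma, adjusted p = 0.0274). Smo, the Hedgehog pathway member of the wider Frizzled family, had a mean of 0.35 ± 0.052 (SD, n = 3, adjusted p = 0.100).

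Of 20 ligands, 2 were lower and 0 higher, against 0.483% and 0.342% of all gene names. Wnt4, which drives the mesenchymal-to-epithelial transition, had a mean of -2.40 ± 0.34 (SD, n = 3, adjusted p = 0.0201), and Wnt11, a ligand of the ureteric tip, a mean of -0.76 ± 0.13 (SD, n = 3, adjusted p = 0.0408). Wnt9b had a mean of 0.73 ± 0.25 (SD, n = 3, adjusted p = 0.0661, not called).

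Among the pathway lists, that of canonical Wnt readout genes had the highest share of calls, with 5 of 9 lower and a median of -0.69. Over all gene names, 0.483% were lower. The lists were chosen with earlier results of these data known. The authors had already reported Dkk1, Sp5, Lef1 and Notum of this list as lowered on these arrays, as well as Fzd10, Frzb and Wnt4. The share of calls in this list is therefore no independent evidence. Those that fell were Dkk1, a secreted antagonist (-2.25), the transcription factors Sp5 (-1.66), Lef1 (-1.13) and Tcf7 (-0.69), and Notum, an enzyme that inactivates Wnt proteins (-0.92). In the Fgfrl1-/- channel Notum was well above background on only 1 of 3 arrays, so that the size of its difference is uncertain. Dkk1 is also on the list of renal vesicle markers, as is Wnt4. Axin2, a widely used readout of β-catenin signaling, had a mean of -0.14 ± 0.088 (SD, n = 3, adjusted p = 0.455).

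**Figure D5:**
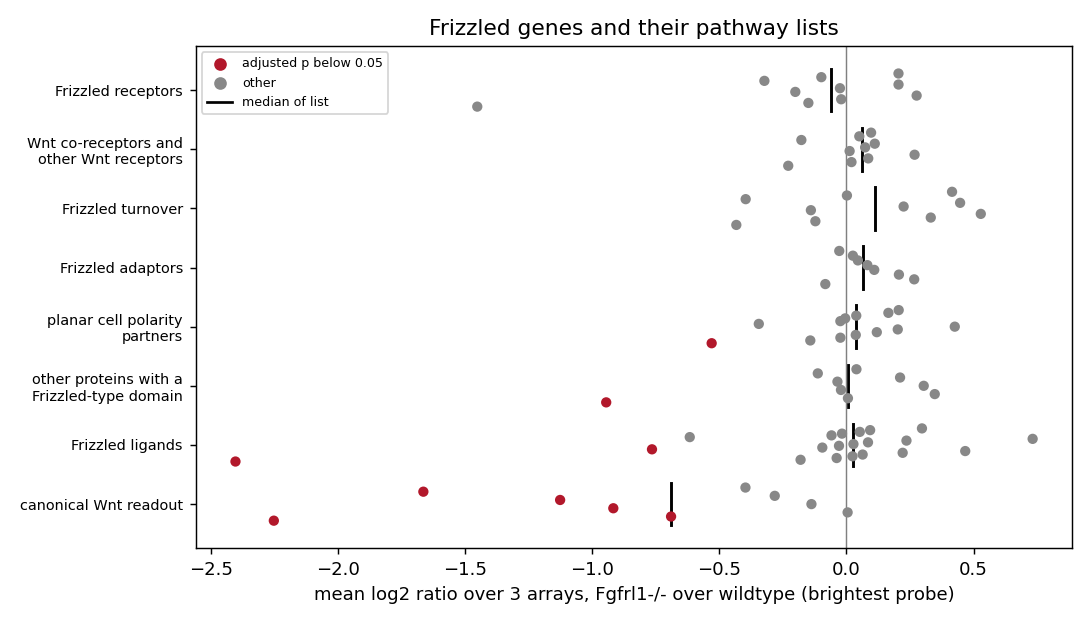
Mean log2 ratio of Fgfrl1-/- over wildtype over 3 arrays (x axis) for the 10 Frizzled genes and the genes of 7 pathway lists (rows), each dot a gene by its brightest probe, red where the adjusted p was below 0.05, with the list median as a black bar. Fzd10 stands apart at -1.45 in the first row, and red dots are most frequent among the canonical Wnt readout genes, with 5 of 9.

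Cell type markers also differed between the genotypes. Of 10 renal vesicle markers, 6 were lower, with a median log2 ratio of -1.18. Their summed normalized intensity was 5723 to 7576 in Fgfrl1-/- and 11831 to 14501 in wildtype, and 9 of 10 were well above background in all channels. The authors had already reported Wnt4, Lhx1, Pax8, Fgf8, Jag1, Dll1, Bmp2 and Dkk1 of this list as lowered on these arrays. The share of calls among the renal vesicle markers is therefore no independent evidence. Gdnf, a cap mesenchyme marker, was also among the lowered genes they reported. In the cap mesenchyme list 2 of 10 were lower (Cited1 and Gdnf), in the ureteric tip list 2 of 8 were lower (Wnt11 and Slco4c1), in the stroma list 2 of 10 were higher (Pdgfra and Col1a1), and 1 each was higher for the ureteric stalk (Krt7, of 9) and for macrophages (C1qa, of 7). Over all gene names, 0.483% were lower and 0.342% higher. The median log2 ratios were 0.53 for macrophages, 0.39 for the stroma and 0.37 for the ureteric stalk, and 7 of 7, 7 of 10 and 6 of 9 of these genes were above 0 on all arrays. None passed among 10 neural and glial, 7 skeletal muscle and 7 erythroid genes. In whole rudiments, fewer cells of a type and less Fzd10 RNA per cell cannot be told apart, and the part of these cell types in the Fzd10 difference was not tested.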

How the data were processed

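Total RNA of 3 Fgfrl1-/- and 3 wildtype preparations was compared on 3 two-colour arrays. The authors extracted spot intensity values with Agilent Feature Extraction (version 10 per the submitters' processing notes, 9.5.3.1 and 10.5.1.1 in the headers). They deposited the scanner output, with its log10 ratio of red over green, and a log2 table whose making is not given in the sources used here. Its sign was set by comparison with the scanner ratios (r between -0.718 and -0.705). Median signals were corrected with normexp (offset 50) and loess in limma 3.58.1 (R 4.3.3), with control spots at weight 0 and outlier spots removed. Spots of a probe were averaged, and log2 ratios (Fgfrl1-/- over wildtype) were tested with lmFit and eBayes, adjusted by Benjamini-Hochberg. The script was tested on simulated data. Gene names, present in the file of array 1 only, were carried over by probe name, and 1 list gene (Mfrp) matched none. Named in the text were all Frizzled probes, Fgfrl1, list genes past the test, markers and, for each Fzd10 probe, the 3 nearest called genes. Other list genes were named after their values were seen. Members and lists were chosen with earlier results of these data known. Alternatives covered background, normalization, filters, probe choice, variance, slide, the deposited log2 table and each array left out.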

Additional observations from a re-analysis of the deposited data

How the results depend on the processing

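The direction of both Fzd10 probes, Fzd9, Fzd3, Fzd4, Fzd6 and Fzd8 was the same under all 17 alternatives that gave a value. Fzd10 minus the median of the other 9 genes stayed between -1.69 and -1.18. The number of lower Frizzled probes, 1 as reported, was 0 with the scanner software's ratios, an offset of 0 in normexp, 1 probe per gene name or 1 value per slide, and 2 with median centring, trend and robust variance or separate channels. It ranged from 0 to 5, and that of higher ones from 0 to 2, when each array was left out. Without arrays 2 or 3 the whole array gave 0 calls, and without array 1 it gave 4172 lower and 3494 higher probes. The lists gave 0 to 20 lower and 0 to 11 higher genes.
The whole array gave 0 lower and 0 higher probes, and the lists 0 lower genes, with an offset of 0, the scanner ratios or 1 value per slide. It gave 91 lower and 2 higher probes with median centring (lists 5 lower), 50 and 15 with quantile normalization (lists 5), 57 and 18 without dim probes (lists 4) and 32 and 4 with the deposited log2 table (lists 4). It gave 72 higher probes without background subtraction and 222 with separate channels (lists 1 higher). With 1 probe per gene name that was a RefSeq symbol or synonym, chosen after seeing the data, 327 were lower and 374 higher (lists 1 higher).
Some probes changed sign, among them the brighter ones of Fzd2 and Fzd7, whose means were each 0.20 as reported. With median centring, Fzd2 brighter was -0.19, Fzd7 brighter -0.094, Fzd7 dimmer 0.0025, Fzd5 brighter 0.029 and Fzd5 dimmer 0.051. With the scanner ratios, Fzd2 dimmer was 0.028, Fzd5 brighter 0.040 and Fzd7 dimmer 0.053. With 1 value per slide, Fzd1 was 0.077. When each array was left out, Fzd1 ranged from -0.23 to 0.098, Fzd2 dimmer from -0.12 to 0.059, Fzd5 brighter from -0.059 to 0.042, Fzd5 dimmer from -0.14 to 0.046, Fzd7 brighter from -0.067 to 0.41 and Fzd7 dimmer from -0.17 to 0.042. The cause was not tested. Slide as a random block could not be fitted. No paired analysis was possible beyond the pairing within each array, because every log2 ratio already holds 1 pair of preparations. Among Frizzled probes those of Fzd5 lay closest to background, with readings of 49 to 66 units in the Fgfrl1-/- channel over local backgrounds of 17 to 29.5 units.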
